A study of Mus musculus with 31 samples.

Results

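The genes described here are those of the red blood cell and its precursors, followed in brain, liver, spleen and thymus of Dll1 mutant mice. They were chosen as a measure of blood held in an organ and of red cell formation in the spleen. The 9 genes listed were Hba-a1, Hbb-b1, Hbb-b2, Alas2, Slc4a1, Epb42, Klf1, Gata1 and Tfrc. Of these, 5 genes had a row in the deposited table, with 10 rows out of 20794, and 4 genes (Hbb-b1, Hbb-b2, Epb42 and Tfrc) had none and are not described further. Hba-a1 accounted for 6 of the 10 rows, and Alas2, Slc4a1, Klf1 and Gata1 had 1 row each.

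Red blood cells carry oxygen with haemoglobin, a tetramer of alpha and beta globin chains that each hold a haem group. Globin messenger RNA is very abundant in reticulocytes, the youngest circulating red cells, so alpha and beta globin are found in the RNA of almost any organ that was not flushed of blood. In the mouse, unlike in humans, the spleen remains a site of red cell formation in adult life. Erythroid precursors there depend on the transcription factors Gata1 and Klf1, on haem made by Alas2, and on membrane proteins such as Slc4a1.

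The values come from dual-colour cDNA arrays. RNA of a single male Dll1 mutant mouse of 17 weeks was hybridised with a pool of RNA from the same organ of wild-type males of 18 weeks, with 20 µg of each RNA labelled. The labels name neither the Dll1 allele nor whether 1 or both copies were affected, and the pool is a single control sample, listed as 4 animals and described in the protocol as 6, so the spread between wild-type mice was not measured. The same 4 mutant mice gave all 4 organs, and each organ of a mouse was hybridised on 2 arrays with the dyes exchanged. Only the thymus of mouse 2 has a lone array (mutant RNA in Cy5), giving 31 arrays in all.

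Each value is a log2 ratio for 1 spot and 1 array. The sources used here do not state its direction. It was taken as Dll1 mutant over wild-type pool, which is likely because the labels list the mutant RNA as the first channel on every array. The opposite reading would turn every sign below. A ratio carries no level, so an organ could not be checked against its marker genes, and genes cannot be ranked by abundance. In whole organs, fewer erythroid cells and less RNA per cell cannot be told apart. Most arrays had a value in nearly every row (median 20312). The 2 arrays of spleen mouse 1 stood apart, with only 12693 values (mutant RNA in Cy5) and 15347 values (Cy3). The Cy5 array of brain mouse 4 was next, with 16152 values.

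The rows carry numbers and no gene names. Each row took the gene that the probe annotation lists 11 places earlier. This displacement was inferred from these data because it brings rows of some genes, such as Hba-a1, together. The rows described here were thus chosen by the correlation of measured values between rows of a gene, and the agreement between Hba-a1 rows is given only as a description. Over the 31 arrays the 15 pairs of Hba-a1 rows had a mean Pearson r of 0.82 (lowest 0.62, highest 0.98). At every other displacement from 30 places back to 30 places forward, the mean r of the corresponding rows was at most 0.23. Pairs of rows of other genes agreed far less, with a median r of 0.05 over 4869 pairs, and 4.85% of those pairs reached an r of 0.5. Named rows outside the members had a like median r of 0.05 with the Hba-a1 mean, over 16 mouse and organ means. For most genes other than Hba-a1, the inferred names are thus not shown by agreement between rows. These correlations run over arrays that share mice, dyes and pools.

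Hba-a1 encodes an alpha chain of adult haemoglobin and lies at chr11:32283672-32284486 (GRCm38.p6). Its duplicate Hba-a2 lies on the same chromosome at chr11:32296492-32297310, and cDNA probes may not tell the pair apart. The 6 rows are called a to f here in the order of the table. Rows a to e lie close together (rows 15370, 15434, 15446, 15531 and 15571), and row f (row 19763) falls near the end of the table, where the inferred names are uncertain. The mean r among rows a to e was 0.89, and that of row f with them was 0.67. Row f was closest to the others in spleen (mean r 0.91 over 8 arrays) and farthest from them in brain (0.42 over 8 arrays).

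Alas2, the erythroid form of the first enzyme of haem synthesis, lies at chrX:150547417-150570622. The 250 bases before the annotated starts of Hba-a1 and Alas2 are shown because these genes ordered the mice alike in thymus and much alike in spleen and liver. In brain they did not, mouse 3 being the lowest for Hba-a1 and the highest for Alas2 (values below). The Alas2 order rests in part on near ties between mice. It held on both dye orientations in only 9 of 21 pairs of mice. Both sequences are from RefSeq on build GRCm38.p6, plus strand, at chr11:32283422-32283671 and chrX:150547167-150547416. Capitals mark matches, on either strand, to AGATAA or TGATAA, forms of the GATA motif, and to CACCC, the core of the motif bound by Klf1 family factors.
Hba-a1: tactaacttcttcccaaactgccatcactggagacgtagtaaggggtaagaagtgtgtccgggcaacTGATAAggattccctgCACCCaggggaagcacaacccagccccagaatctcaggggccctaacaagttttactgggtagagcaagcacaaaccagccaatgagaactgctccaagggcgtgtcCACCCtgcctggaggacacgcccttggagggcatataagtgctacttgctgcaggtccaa
Alas2: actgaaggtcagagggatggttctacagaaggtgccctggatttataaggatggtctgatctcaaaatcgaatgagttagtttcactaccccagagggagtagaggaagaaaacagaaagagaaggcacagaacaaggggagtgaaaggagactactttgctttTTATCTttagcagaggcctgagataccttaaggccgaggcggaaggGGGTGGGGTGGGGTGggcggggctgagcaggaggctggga
The Hba-a1 window holds 1 TGATAA and 2 CACCC, all on the strand shown, and a CCAAT from 88 to 84 bases before the start. The Alas2 window holds 1 AGATAA and a run of 3 CACCC, read on the opposite strand, with the run ending 26 bases before the start, and 1 TATAAA on the opposite strand far upstream. Among 32851 windows of the same length, 9.99% hold AGATAA, 7.94% hold TGATAA, 52.0% hold CACCC, 33.8% hold CCAAT and 12.4% hold TATAAA on either strand. The motifs do not overlap one another in these windows, and a match is only a run of letters.

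In brain, Hba-a1 was below the wild-type pool in all 4 Dll1 mutant mice. The mean of the 6 rows was a log2 ratio of -0.47 in mouse 1, -1.02 in mouse 2, -1.25 in mouse 3 and -0.29 in mouse 4. Mice 2 and 3 were clearly lower than mice 1 and 4. In mice 1 and 4 the arrays differed in sign, with means of 0.07 and 0.30 with the mutant RNA in Cy5. With it in Cy3 the means were -1.01 and -0.88. The mean over mice was -0.76 ± 0.45 (SD, n = 4), a ratio of 0.592 to the pool. Single rows had means from -1.18 (row f) to -0.59 (row c), and 5 of the 6 rows were below 0 in every mouse, row b being at 0.03 in mouse 4. Over all members, 6 of the 8 rows with a value in all 4 mice were below 0 in every mouse, against 17.6% of all rows. None was above 0 in every mouse, as 10.6% of all rows were.

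None of these differences passed the test. With limma and Benjamini-Hochberg adjustment over 19102 rows, 0% of rows were called in either direction in brain, and the adjusted p was 0.42 for each Hba-a1 row. Before adjustment, 5 Hba-a1 rows had p under 0.05 and a negative mean, where 4.44% of all rows did. Klf1 was the 1 member row with p under 0.05 and a positive mean, where 7.25% of all rows did. The Hba-a1 rows are probes for a single gene and are not independent. The lowest of them, row f, averaged -1.18 ± 0.35 (SD, n = 4), with -1.34, -1.27, -1.45 and -0.68 in mice 1 to 4, and it is a row whose name is uncertain. Without row f the Hba-a1 mean in brain was -0.67. Without mouse 4, whose Cy5 array held fewer values, the mean of all Hba-a1 rows was -0.91.

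In spleen, where red cells are made as well as held, Hba-a1 was below the pool in 3 of the 4 Dll1 mutant mice. The mean of the 6 rows was -0.41 in mouse 1, -0.75 in mouse 2, 0.01 in mouse 3 and -1.14 in mouse 4. Mouse 3 was level with the pool and mouse 4 the lowest. In mice 2 and 3 the arrays differed in sign, with means of 0.04 and 0.69 with the mutant RNA in Cy5. With it in Cy3 the means were -1.54 and -0.68. The mean over mice was -0.57 ± 0.49 (SD, n = 4), a ratio of 0.672, and the means of single rows lay between -0.66 and -0.51. Rows c, e and f were below 0 in every mouse, 3 of the 7 member rows with a value in all 4 mice, against 13.9% of all rows, and none was above 0 in every mouse, against 12.3%. In spleen too 0% of 19591 rows were called in either direction. The adjusted p of the Hba-a1 rows ran from 0.452 to 0.480, and 4 of them had an unadjusted p under 0.05 with a negative mean, as 5.1% of all rows did. No member row had one with a positive mean, where 5.57% of all rows did. Without mouse 1, whose arrays were the poorest, the mean was -0.63.

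Liver and thymus showed no common direction. In liver the Hba-a1 mean was 0.56 in mouse 1, -0.08 in mouse 2, -0.90 in mouse 3 and 0.05 in mouse 4, so that 1 mouse was well above the pool and 1 well below it. The mean was -0.09 ± 0.61 (SD, n = 4). In thymus it was 0.33 in mouse 1, 0.55 in mouse 2, -1.0 in mouse 3 and -0.74 in mouse 4. Mice 1 and 2 were above the pool and mice 3 and 4 below it, with a mean of -0.21 ± 0.77 (SD, n = 4). The thymus value of mouse 2 rests on its single array, corrected for dye from the other mice, and without that mouse the thymus mean was -0.47. It was -0.39 without mouse 1, 0.05 without mouse 3 and -0.04 without mouse 4, and the liver mean was -0.31 without mouse 1 and 0.18 without mouse 3, so neither mean had a stable sign. In both organs 0% of rows were called (19973 in liver and 20185 in thymus), and the adjusted p of the Hba-a1 rows was at least 0.937 in liver and 0.860 in thymus. Before adjustment, no member row in liver had p under 0.05, where 1.79% of all rows did with a negative and 2.7% with a positive mean. In thymus 1 member row did, Slc4a1, with a negative mean, and none with a positive mean, where 0.684% of all rows did. Of the 8 liver member rows with values in all 4 mice, none lay on the same side of 0 in every mouse, against 5.65% of all rows below and 7.44% above 0. In thymus no member row was above 0 in every mouse, against 6.16% of all rows.

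**Figure D1:**
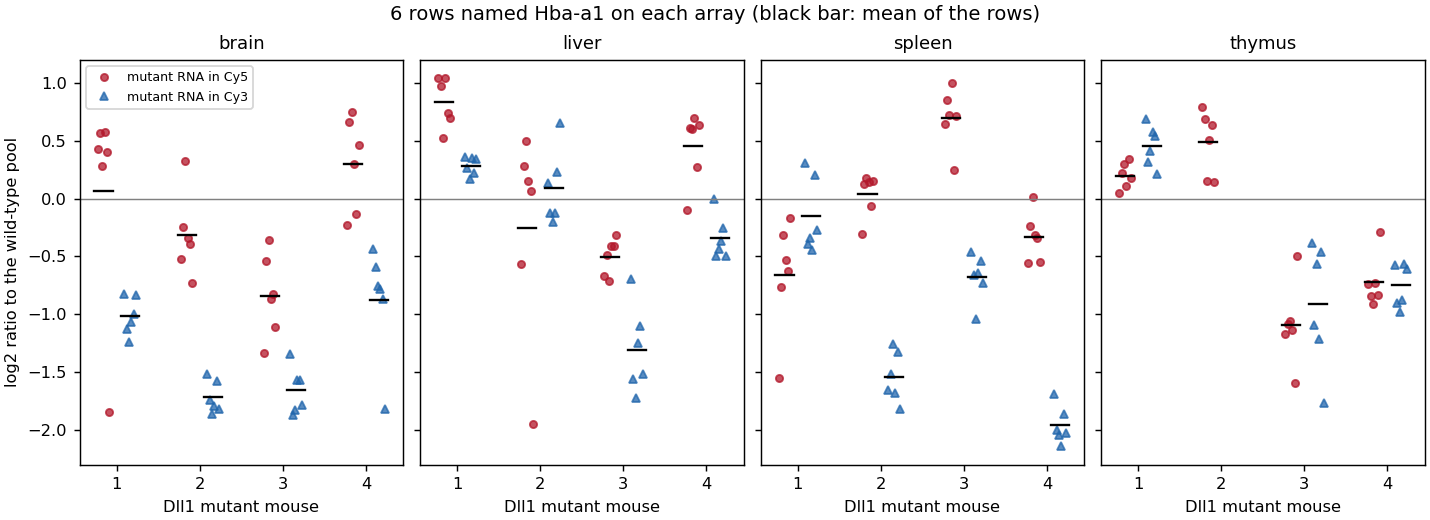
Log2 ratio to the wild-type pool (vertical axis) of the 6 Hba-a1 rows on each array, by organ and Dll1 mutant mouse (horizontal axis). Circles are arrays with the mutant RNA in Cy5, triangles those with it in Cy3, and black bars the mean of the rows. The 6 rows lie on the same side of 0 on 22 of the 31 arrays, and in brain and spleen most Cy3 arrays sit below the Cy5 arrays of the same mouse.

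The Hba-a1 rows differed more between mice than among themselves. Agreement between rows was used to infer the names, and the rows share arrays, so this comparison is only a description. The SD of the 6 rows within a mouse had a median of 0.22 in brain, 0.17 in liver, 0.14 in spleen and 0.17 in thymus. The SD of the Hba-a1 mean between mice was larger in each organ, at 0.45, 0.61, 0.49 and 0.77 in the same order. Taken singly, the 6 rows had SDs between mice of 0.35 to 0.58 in brain, 0.52 to 0.71 in liver, 0.37 to 0.59 in spleen and 0.57 to 0.92 in thymus. For all rows with a value in every mouse the median SD was 0.44 in brain, 0.34 in liver, 0.52 in spleen and 0.33 in thymus, below all 6 rows in liver and thymus and within their range in brain and spleen. From the lowest to the highest mouse the range was 1.46 in liver and 1.55 in thymus. Technical and biological parts of this spread were not separated for Hba-a1, which has a single dye-swapped pair of arrays per mouse. Over all rows, a limma fit to the arrays with a dye term gave the correlation between arrays of a mouse. It was 0.03 in brain, 0.007 in liver, 0.01 in spleen and 0.19 in thymus.

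A mouse low in Hba-a1 in one organ was not always low in the others. Mouse 3 was the lowest in brain, liver and thymus and the highest in spleen. Mouse 4 was the highest in brain and the lowest in spleen. In mouse 3 the spleen was above the brain by 1.26, above the liver by 0.91 and above the thymus by 1.01, whereas in mouse 4 the spleen was below the brain by 0.86 and below the liver by 1.20 (each a difference of log2 ratios).

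**Figure D2:**
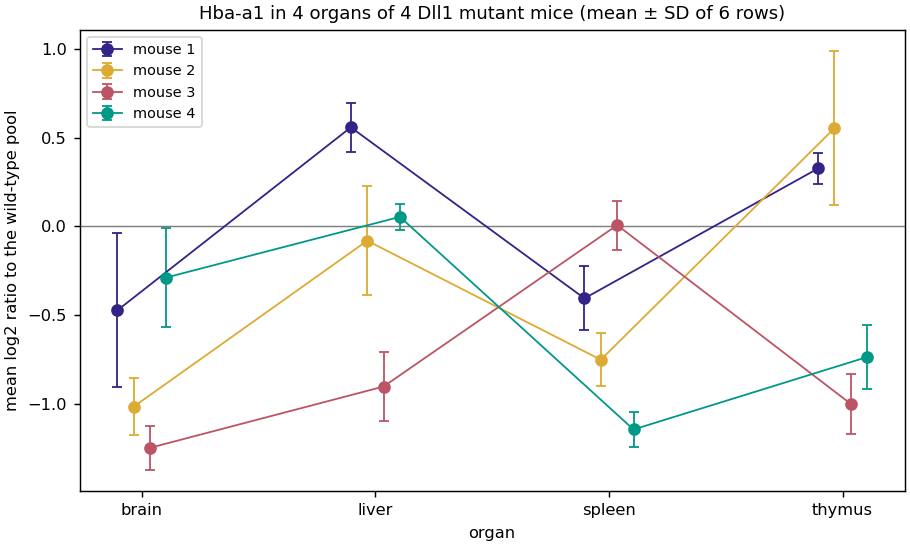
Mean log2 ratio of the 6 Hba-a1 rows to the wild-type pool (vertical axis) in each organ (horizontal axis), with 1 line for each Dll1 mutant mouse and bars for the SD over the rows. The lines cross, with mouse 3 lowest in brain (-1.25), liver (-0.90) and thymus (-1.0) and highest in spleen (0.01).

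From the lowest to the highest mean, the organs stood in the order brain, spleen, thymus and liver for Hba-a1, but neighbours in that order did not differ beyond the spread of the mice. The 6 differences between organs were tested in a single limma fit over 18061 rows. Of all rows, 0.0332% were called for spleen minus brain and 0.00554% for liver minus brain, 6 rows and 1 row in number, and 0% for each of the other 4 differences. No member row was called in any of them. The smallest adjusted p of an Hba-a1 row was 0.405, for row f in thymus minus brain (0.81 ± 0.37, SE), and that of the other members was 0.307. Before adjustment, 8 of the 60 tests of member rows had p under 0.05. Of the 10 member rows these were 3 for thymus minus brain (12% of all rows), 2 for liver minus brain (8.97%), 1 for spleen minus brain (10.2%), 1 for spleen minus thymus (10.6%), 1 for thymus minus liver (2.64%) and 0 for spleen minus liver (8.37%). With the mouse as a block, since the same mice gave every organ, 0 rows were called in any difference, where the fit without it called 6 and 1.

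The dye-swapped arrays of each mouse were compared for Hba-a1. Of the 15 mice and organs with both arrays, the Hba-a1 mean had the same sign on both in 9. Over all rows, 48.4% of such pairs had the same sign. Of the 21 pairs of mice within an organ, 16 stood in the same order on the Cy5 and on the Cy3 arrays for this mean of 6 rows. Row by row the count was 14, 17, 13, 15, 13 and 11 of 21 for rows a to f, or 65.9% in all, against 51.3% over all rows. Read as Cy5 over Cy3, the order of the mean would be the same in 5 of the 21 pairs. The orientation still shifted the values. In brain the Hba-a1 mean was -0.20 ± 0.50 on the Cy5 arrays (mutant RNA labelled with Cy5) and -1.32 ± 0.43 on the Cy3 arrays, and in spleen it was -0.06 ± 0.58 and -1.08 ± 0.82 in the same order (SD, n = 4 each). In liver the values were 0.13 ± 0.62 and -0.32 ± 0.71 (SD, n = 4 each). In thymus they were -0.28 ± 0.74 (SD, n = 4) and -0.40 ± 0.75 (SD, n = 3). The distance from the pool in brain and spleen was thus mostly that of the Cy3 arrays. In brain, liver and spleen each mean holds both orientations equally, so that a dye effect common to the mice cancels in it. A dye term fitted to the arrays with limma was called in no member row, the smallest adjusted p being 0.0535, for Alas2 in brain. Over all rows it was called in 1 row in liver and 0 in each other organ, so the lack of a call says little about the members. In brain the fitted difference of Cy5 minus Cy3 arrays was 0.61 to 1.67 for the Hba-a1 rows and -2.45 for Alas2.

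Alas2 was near the pool in most organs and varied with the dye. In spleen it was 0.03 in mouse 1, -0.72 in mouse 2, 0.02 in mouse 3 and -0.73 in mouse 4. Mice 2 and 4 were the lowest, as for Hba-a1, but mouse 1 was near 0 here and at -0.41 for Hba-a1. The mean was -0.35 ± 0.43 (SD, n = 4), with an adjusted p of 0.558. In thymus Alas2 was 0.14, 0.74, -0.18 and -0.16 in mice 1 to 4, the mice standing in the same order as for Hba-a1. On single arrays, Alas2 had the sign of the Hba-a1 mean on 6 of 8 in spleen, 4 of 7 in thymus, 4 of 8 in liver and 2 of 8 in brain. Between the dye orientations, Alas2 kept the order of 9 of 21 pairs of mice (42.9%), against 51.3% over all rows.

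In brain, Alas2 pointed in opposite directions on the dye-swapped arrays of every mouse. With the mutant RNA in Cy5 the values were -1.08, -2.45, -0.42 and -0.70 in mice 1 to 4. With it in Cy3 they were 0.61, 1.89, 1.32 and 1.34. All 4 were below 0 in the first orientation and above 0 in the second, so that they nearly cancelled in the mean of 0.07 ± 0.38 (SD, n = 4). In liver the same happened on a smaller scale, with means of -0.34 in Cy5 and 0.37 in Cy3. Only 2 of its 15 pairs of arrays had the same sign. Under a reading as Cy5 over Cy3, the Alas2 mean in brain would be -1.23.

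**Figure D3:**
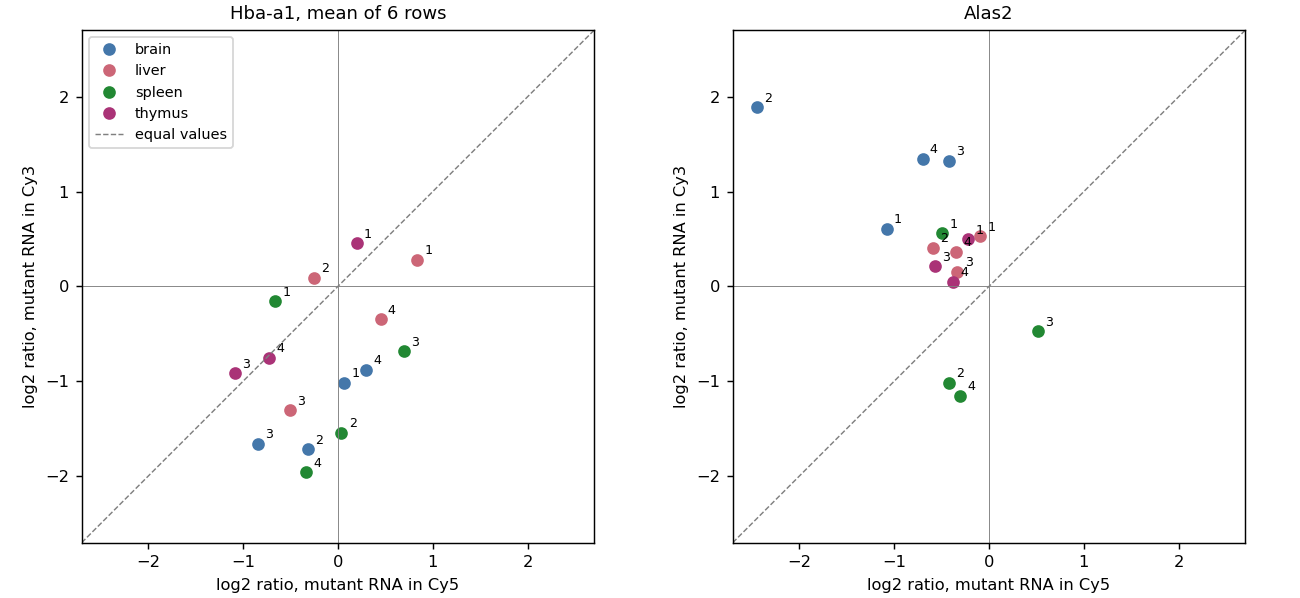
Log2 ratio with the mutant RNA in Cy3 (vertical axis) against that with it in Cy5 (horizontal axis) for Hba-a1 (left, mean of 6 rows) and Alas2 (right), with 1 point for each of 15 mice and organs, numbered by mouse and coloured by organ. The dashed line marks equal values. Hba-a1 mostly lies below the line, with 16 of 21 pairs of mice in the same order on both axes, whereas the 4 brain points of Alas2 lie in the upper left, with opposite signs on both arrays.

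Slc4a1, the anion exchanger known as band 3 of the red cell membrane, lies at chr11:102348820-102365281. It was the member with the lowest mean in thymus, at -0.22 in mouse 1, -1.50 in mouse 2, -2.14 in mouse 3 and -1.31 in mouse 4. All 4 mice were below the pool, 3 of them by more than 1, with a mean of -1.29 ± 0.80 (SD, n = 4). It was the only one of the 9 member rows with values in all 4 mice that was below 0 in each, against 6.92% of all rows. The unadjusted p was 0.00634, when 2.44% of all rows had p under 0.05 with a negative mean, and the adjusted p was 0.860. Its thymus array pairs were not all alike. Mouse 1 had 0.33 with the mutant RNA in Cy3 and -0.77 with it in Cy5, whereas mice 3 and 4 were below -1 on both arrays. Mouse 2 had no pair, and its value rests on its lone Cy5 array, at -1.42 before the dye correction.

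Elsewhere Slc4a1 did not follow a direction and had values in only 3 mice. In spleen it was -0.49 in mouse 2, 0.12 in mouse 3 and -0.44 in mouse 4 (mean -0.27 ± 0.34, SD, n = 3). Among these 3 mice, mouse 3 was the highest, as for Hba-a1. In brain it ranged from -0.38 to 1.18, and in liver from -0.39 to 0.29. The difference between thymus and brain, -1.50 ± 0.45 (SE), had the smallest adjusted p of any member and organ difference, 0.307 in limma's test.

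The transcription factors were the least complete. Klf1, which drives adult globin genes and lies at chr8:84901982-84905291, had values in 3 mice in each organ. In brain it was 1.59 in mouse 2, 1.81 in mouse 3 and 0.52 in mouse 4, all above the pool, and the mean was 1.31 ± 0.69 (SD, n = 3). The unadjusted p was 0.00829 and the adjusted p 0.42 in limma's test, and 7.25% of all brain rows had an unadjusted p under 0.05 with a positive mean. Its arrays spread widely, with 3.10 and 0.53 for mouse 3 (on the Cy3 and the Cy5 array) and -0.62 and 1.65 for mouse 4 in the same order. In spleen it was 0.09 ± 0.54, in liver -0.04 ± 0.60 and in thymus -0.12 ± 0.46 (SD, n = 3 each). With the lone array of mouse 1 kept, an alternative chosen after seeing the data, the spleen mean was -0.58 (n = 4). Its value on the single thymus array of mouse 2 was the only member value beyond 12 in size and was left out. With it the thymus mean was 3.98 (n = 4). Read as Cy5 over Cy3, the brain mean was -0.20.

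Gata1, the main transcription factor of erythroid and megakaryocyte precursors, lies at chrX:7959260-7976663, and its row is also near the end of the table, where names are uncertain. In brain it was -0.11, -0.48, -0.16 and -0.32 in mice 1 to 4. All 4 were slightly below the pool (mean -0.27 ± 0.17, SD, n = 4, adjusted p 0.515 in limma's test). It was 0.38 in mouse 2, -0.14 in mouse 3 and -0.30 in mouse 4 in spleen, with no value in mouse 1. In liver it ranged from -0.60 to 0.32 and in thymus from -0.15 to 0.24. Neither factor kept the order of the mice between dye orientations, with 5 of 12 pairs of mice in the same order for Klf1 and 6 of 18 for Gata1.

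**Figure D4:**
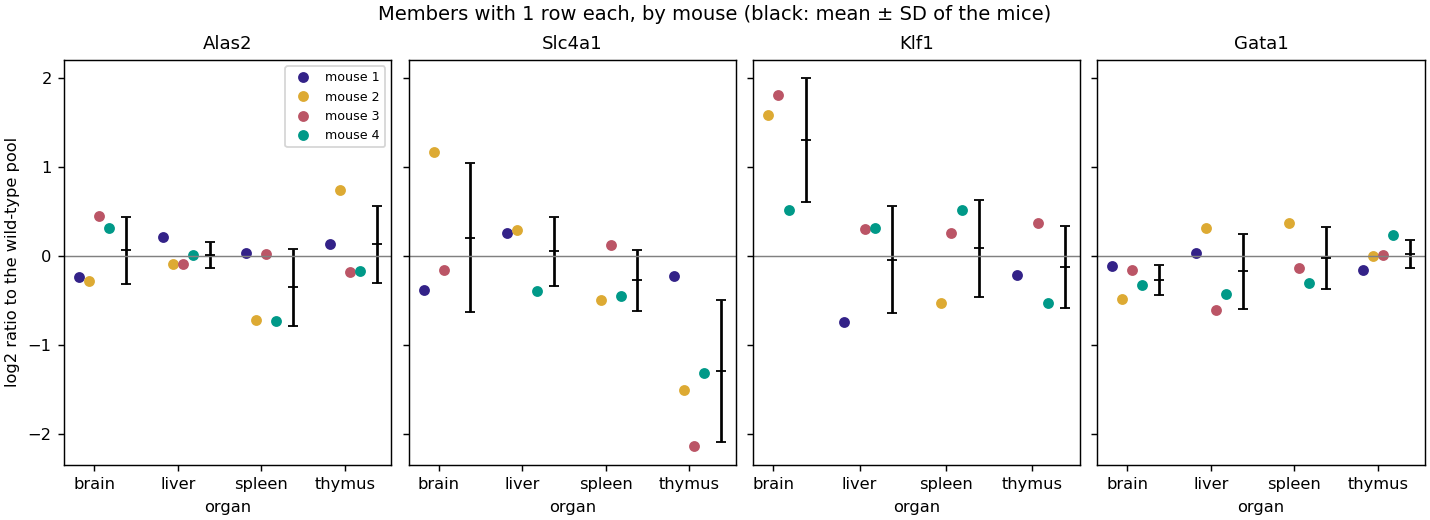
Log2 ratio to the wild-type pool (vertical axis) of the members with 1 row each, by organ (horizontal axis), with 1 coloured point for each Dll1 mutant mouse and the mean ± SD of the mice in black. Slc4a1 lies below 0 in all 4 mice in thymus (mean -1.29) and Klf1 above 0 in 3 mice in brain (mean 1.31), and no row passed the test.

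Other erythroid genes were followed with 8 gene lists, which held 71 genes with a row. No row of these lists was called in any organ. At an unadjusted p under 0.05 there were 17 of 98 rows in brain, 3 of 106 in liver, 13 of 103 in spleen and 2 of 105 in thymus. The shares of all rows were 11.7% in brain, 4.49% in liver, 10.7% in spleen and 3.13% in thymus. The median of the listed rows was -0.11 in brain against 0.04 for all rows, -0.02 in liver against 0.02, -0.07 in spleen against 0.09, and 0.02 in thymus against -0.01.

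Among the globins, Hba-x, the embryonic zeta chain, averaged -0.59 ± 0.89 in brain and -0.36 ± 0.78 in spleen. Cygb and Ngb, globins of other tissues, averaged -0.01 ± 0.20 and 0.02 ± 0.33 in brain (SD, n = 4 each). Both of these brain means lay close to the pool, while that of Hba-a1 was at -0.76. No row was called in brain, and the difference between these genes was not tested. None of the 4 rows of this list was called, and 1 had an unadjusted p under 0.05, in spleen, where Ngb averaged 0.60 ± 0.29 (SD, n = 4, adjusted p 0.42 in limma's test).

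No enzyme of haem synthesis was called in spleen. Alad averaged -0.34 ± 0.26, Uros 0.09 ± 0.25 and Ppox -0.23 ± 0.63 (SD, n = 4 each), and the median of the 9 rows was -0.13. In brain Uros averaged 0.80 ± 0.40 (SD, n = 3). Of the genes of the red cell membrane, 15 of 21 rows were below 0 in spleen, where 40.7% of all rows were, with a median of -0.09. Sptb (erythroid spectrin) had 3 rows at -0.08, 0.31 and -0.33, Ank1 (ankyrin of the red cell) 4 rows at -0.07, -0.21, 0.20 and 0.51, and Rhd was at 0.08, so that rows of the same gene did not agree.

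Of the 8 erythroid lists, the lowest medians in spleen were those of red cell enzymes and of late organelle loss. All 11 rows of red cell enzymes were below 0 in spleen, with a median of -0.35 against 0.09 for all rows, and none was called. Car2, a carbonic anhydrase also made outside the red cell, had 3 rows at -0.35, -0.39 and -0.28, Car1 was at -0.17, and Bpgm, which makes the regulator of oxygen binding 2,3-bisphosphoglycerate, had 2 rows at -0.25 and -0.40. By mouse, the median of this list in spleen was -0.13, -0.45, -0.08 and -0.73 in mice 1 to 4. Mice 2 and 4 were the lowest, as they were for Hba-a1. In brain the list was low too, with a median of -0.32 against 0.04 for all rows and 8 of 11 rows below 0. The 3 Car2 rows averaged -0.41, -0.575 and -0.32 there. In liver and thymus the medians of the list were 0.02 and 0.002. For organelle loss in late precursors, the median was -0.21 in spleen. Bnip3l, which removes mitochondria from reticulocytes, averaged -0.46 ± 0.25 (SD, n = 4, adjusted p 0.458 in limma's test) there. The rows of Map1lc3b, an autophagy protein, averaged -0.64 and -0.21, while Ulk1, an autophagy kinase, was at 0.78 ± 1.28 (SD, n = 4).

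Transcription factors of the erythroid lineage had medians of 0.21 in brain and 0.11 in spleen. Tal1 had 2 rows at 0.48 and 0.03 in spleen, Nfe2 was at -0.47 ± 0.52 (SD, n = 3), and Zfpm1, a partner of Gata1, had rows at 1.38 ± 1.59 (SD, n = 3) and 0.18 ± 0.59 (SD, n = 4). Genes of erythropoietin signalling had a median of 0.08 in spleen, with Jak2 at -0.07, Stat5a at 0.20 and Stat5b at -0.35. None of these rows was called.

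Among the genes of iron handling, Fth1, the heavy chain of the iron store ferritin, had 4 rows that were all below 0 in spleen, brain and liver. In spleen they averaged -0.87 ± 0.23, -0.38 ± 0.56, -0.62 ± 0.19 and -0.65 ± 0.14, and in brain -0.55 ± 0.25, -0.63 ± 0.26, -0.50 ± 0.14 and -0.39 ± 0.11 (SD, n = 4 each). Their adjusted p was between 0.414 and 0.572 in spleen and close to 0.42 in brain, in limma's test. In liver they averaged between -0.25 and -0.08, and in thymus between -0.06 and 0.16. Trf, the iron carrier transferrin, had rows at -1.15 ± 1.59 and 0.31 ± 0.67 in spleen (SD, n = 4 each), which did not agree. Slc11a2, an importer of iron, had rows at 0.18, 0.15 and 0.84 in spleen. The median of the list was near that of all rows in each organ, at -0.02 in brain, -0.07 in liver, 0.05 in spleen and 0.05 in thymus.

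Markers of other cells that blood or spleen could hold were set beside these genes. In spleen, all 4 rows of B cell markers were below 0, where 40.7% of all rows were. Their medians by mouse were -1.08, -0.70, -0.50 and -0.90. Cd79b averaged -0.41, Ms4a1 -1.34 and Cd22 -0.71 (adjusted p 0.483, 0.414 and 0.414 in limma's test). Macrophage markers were below 0 in 6 of 7 rows, with Cd163 at -0.67, Vcam1 at -0.42 and C1qa at -0.14 and medians by mouse between -0.85 and -0.43. T cell markers had a median of -0.07, with Cd3g at -0.40, Cd3d at 0.01 and Cd3e at -0.14. Other lists had medians above 0 in spleen. These were neutrophils (0.15, 5 of 15 rows below 0), platelets (0.19, 3 of 7) and endothelium (0.02, 6 of 13). The part of these cells in the spleen values of Hba-a1 was not tested.

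In brain, the medians of neutrophil and B cell markers lay above 0 (0.18 and 0.48). The neutrophil markers S100a9 (0.60 and 0.80 in 2 rows), Ltf (0.32 and 0.45) and S100a8 (0.03) averaged above 0, with 4 of 16 rows of the list below 0, where 46.6% of all rows were. Of the B cell markers, 0 of 4 rows were below 0 (Cd79b 0.49, Ms4a1 0.79 and Cd22 0.42). Platelet markers had a median of 0.03, with Pf4 at 0.15, Itga2b at -0.10 and Gp9 at -0.06. T cell markers had a median of -0.24 over 5 rows and macrophage markers one of -0.02 over 7. Endothelial markers had a median of 0.06 over 13 rows, with Pecam1 at 0.57 and 0.36, Cdh5 at -0.01 and -0.51 and Kdr at 0.57. Their part in the brain values of Hba-a1 was not tested. No row of any of these lists was called in any organ.

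The rows most like Hba-a1 were sought among 4029 named rows outside the members that had all 16 values of mouse and organ, by Pearson r with the mean of the Hba-a1 rows. The highest were rows named Mark3 (r = 0.97), Cmtr1 (0.97), Ucma (0.94), Plppr2 (0.94) and Gamt (0.94). These values share arrays, mice and pools, and the median r of the named rows was 0.05. For comparison, Alas2 had an r of 0.54, and the Hba-a1 rows themselves, which form the mean, had r between 0.87 and 0.99. After the mean of each organ was subtracted, the 5 rows had r between 0.93 and 0.97, and 3 of them were again among the 5 highest.

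The row named Mark3 was close to Hba-a1 in size. It ordered the mice as Hba-a1 did in spleen and thymus but not in brain and liver, where neighbouring mice changed places. In spleen it was -0.52 in mouse 1, -0.64 in mouse 2, 0.22 in mouse 3 and -1.03 in mouse 4. In brain it was -0.20, -0.97, -1.23 and -0.26 in mice 1 to 4. Its values differed from the Hba-a1 mean by 0.11 in the median over the 16 mice and organs. The row named Cmtr1 differed by 0.11 in the median, the rows named Ucma and Gamt by 0.13 and the row named Plppr2 by 0.18. In brain the means of the 5 rows lay between -0.80 and -0.56, and in spleen between -0.58 and -0.46, with adjusted p of 0.42 in brain and from 0.466 to 0.520 in spleen in limma's test.

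Other rows of the same genes did not follow Hba-a1. Which clones lie on these spots was not checked, and the names rest on the inferred displacement, so the values may not be those of the named genes. A second row named Mark3 had an r of 0.11, and the other 4 rows named Cmtr1 had r between -0.19 and 0.37. Ucma, Plppr2 and Gamt had no other row, and the rows named Ucma and Gamt lie in the part of the table with uncertain names. The row named Cmtr1 that follows Hba-a1 (row 15573) lies beside Hba-a1 row e (row 15571). Whether this position bears on its values was not tested. In all, 8 of the 4029 named rows outside the members and 11 of 2175 rows without a name had an r of at least 0.9. The most opposed rows were those named Eng, Psg19, Myl10, Cd83 and Armh3, with r from -0.69 to -0.66. None of these was again among the 5 most opposed after organ means were subtracted.

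**Figure D5:**
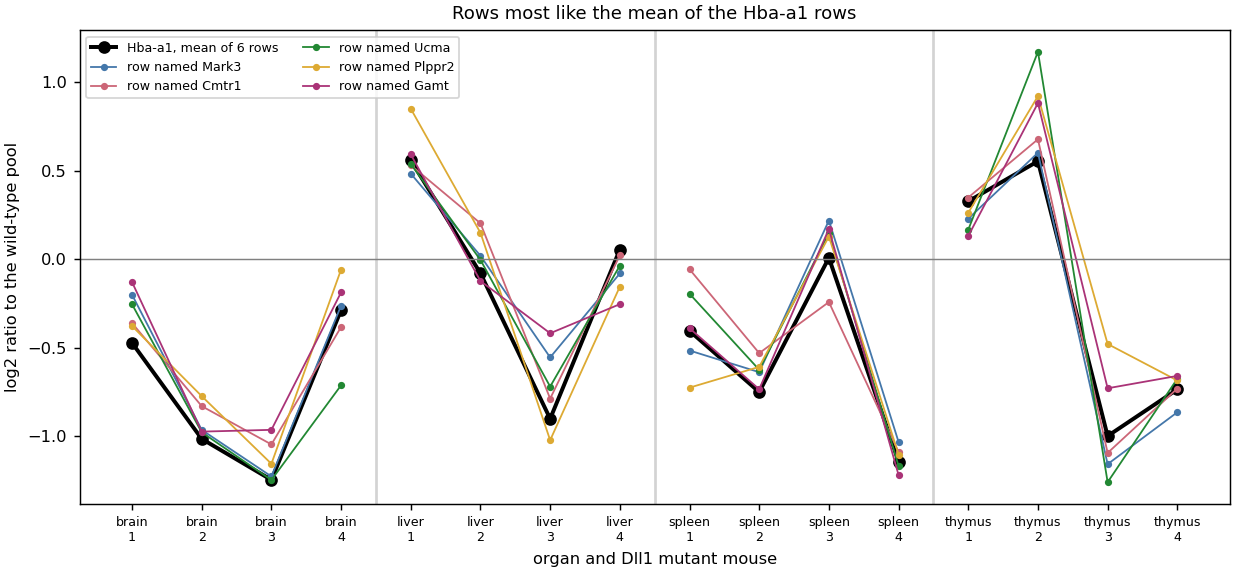
Log2 ratio to the wild-type pool (vertical axis) of the mean of the 6 Hba-a1 rows (black) and of the 5 rows most like it (colours), for each organ and Dll1 mutant mouse (horizontal axis). The 5 rows were chosen for this likeness and follow Hba-a1 with r between 0.94 and 0.97 over the 16 values.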

How the data were processed

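The deposited table holds log2 ratios of dual-colour cDNA arrays, 1 for each spot, which the authors scanned and quantified with GenePix. The normalization, filters and direction of these log2 values are not given in the sources used here. The 31 columns were matched to organ, mouse and dye through the labels. Values beyond 12 in size were dropped, and no normalization was added. A mouse counted as 1 replicate, with the mean of its 2 arrays for each row that both measured. For thymus of mouse 2, the dye effect estimated from the remaining mice was subtracted row by row. Intensities were not used here, so the signal behind a ratio is unknown, and the number of arrays limits precision.

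Rows with values in at least 3 mice were tested against 0 by organ in R 4.3.3 (limma 3.58.1). Differences between organs were tested in a fit with organ as the factor. Both used Benjamini-Hochberg adjustment over all rows at 0.05. The fit by organ was checked on simulated data with the spread of each row. Shifts of 1 log2 unit were recovered in 16% of changed rows in brain, 32% in liver, 7% in spleen and 44% in thymus. Shifts of 2 units were recovered in 80%, 81%, 61% and 84% in the same order. A row that was not called may thus still differ from the pool. The labels show that the same mice gave every organ, so the mouse was also fitted as a block. Over all rows, deviations of different organs of a mouse were uncorrelated (mean r from -0.03 to 0.01). Tables and figures were made with Python 3.11.15, pandas 2.3.3, numpy 2.4.6 and matplotlib 3.10.9.

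Every row of every member is given. From each gene list the first 3 genes with a row are named and the others counted, and the 5 named rows most like and most opposed to the Hba-a1 mean are named. The members and lists were chosen with earlier results of these data known. All Entrez-named rows (12760 rows, 9026 genes) take their genes from the platform annotation at the inferred displacement of 11.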

Additional observations from a re-analysis of the deposited data

Results flagged for a closer look

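Of 36 groups of 4 mice examined (each member row and the Hba-a1 mean in each organ), 1 held a mouse far from the others. For Hba-a1 row c in liver, mouse 3 was at -1.22 while the other mice lay between 0.08 and 0.34, a gap of 0.832 of the whole range. Chance alone would mark about 1 in 20 such groups.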

How the results depend on the processing

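No member row was called in any organ or organ difference under any alternative run. A spread shared by the 4 organs called 7 rows lower and 73 higher in brain and 200 lower and 56 higher in spleen, and a one-sample test over mice called 1 row lower in spleen, all outside the members. The median of the member rows was -0.60 in brain, -0.05 in liver, -0.52 in spleen and -0.19 in thymus. Leaving out each mouse, it ranged from -0.83 to -0.47 in brain, from -0.27 to 0.14 in liver, from -0.78 to -0.35 in spleen and from -0.44 to 0.03 in thymus. In brain it was 0.34 when values were read as Cy5 over Cy3, -1.14 with Cy3 arrays alone, -0.16 with Cy5 arrays alone or with names at displacement 0, and 0.066 when rows were first averaged by gene, since 6 of the 10 rows are Hba-a1. In spleen it was 0.46 as Cy5 over Cy3, -0.0050 with Cy5 arrays alone and 0.25 with names at displacement 0. For liver minus brain the median was -0.31 as Cy5 over Cy3, against 0.49 otherwise.

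The 6 rows called for spleen minus brain and the 1 for liver minus brain were 0 with the replicate block of mouse and 0 as Cy5 over Cy3, and that for liver minus brain was 0 with array medians subtracted. As Cy5 over Cy3, 7 rows were called for thymus minus brain. Leaving out each mouse gave 0 to 3 rows for spleen minus brain, 0 to 1 for spleen minus liver and for spleen minus thymus, and 0 for liver minus brain. The block changed no call of a member. Keeping mice with a value on only 1 of their 2 arrays, chosen after seeing the data, called no row but moved Klf1 in spleen to -0.58. Both arrays were already required wherever a mouse had them, so that alternative gave the same values. Keeping extreme values moved Klf1 in thymus to 3.98. The causes were not tested.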
